A study of Mus musculus with 6 samples.

Results

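Motile cilia genes of ependymal cells were examined in whole mouse brain RNA. The set holds 8 genes, Foxj1, Ccdc153, Tmem212, Rsph1, Dynlrb2, Hydin, Spag17 and Dnah5, taken by their gene symbols in GENCODE M21 from the 55450 genes counted in each library. The rule itself uses symbols and no threshold on a measured value. The study sequenced long RNA (molecules over 200 bp) from total brain of TRMT1L KO mice and of WT mice, with 3 libraries in each group, described as biological triplicates. TRMT1L is a relative of the tRNA methyltransferase TRMT1. The labels name no treatment, age, sex or strain, and do not say how the KO allele was made or whether animals were pooled.

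Ependymal cells line the ventricles of the brain and carry tufts of motile cilia whose beating moves cerebrospinal fluid. The core of a motile cilium, the axoneme, is a ring of microtubule doublets around a central pair. Dynein arms on the doublets make them slide, radial spokes and the central pair control the stroke, and intraflagellar transport builds and maintains the structure. The transcription factor FOXJ1 switches on many genes of the motile axoneme, together with RFX factors that bind X-box sequences in ciliary promoters. Epithelial cells of the nasal airway also carry motile cilia, and those of the choroid plexus carry cilia too. These genes therefore need not come from ependymal cells alone.

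Counts in genes ranged from 31201119 to 36145961 per library. The targeted gene Trmt1l was counted 1279, 1034 and 1158 times in WT and 93, 101 and 106 times in KO (libraries 1 to 3 of each), on the side each label implies. Neuronal markers (Snap25, Syt1, Rbfox3, Tubb3 and Stmn2) summed to between 3292 and 3570 CPM (counts scaled to the library total) and oligodendrocyte markers to between 3296 and 4291 CPM, as a whole-brain label implies. WT library 3 and KO library 3 stood apart in markers of nasal epithelium. The 8 listed Bpif genes, Muc5b and Cyp2g1, which are genes of nasal and olfactory mucosa, together reached 26, 12 and 726 counts for WT libraries 1 to 3 against 19, 14 and 1585 for the KO libraries. Of the 20 nasal markers listed, 18 had at least 10 counts in all, and 13 of these were highest in the same pair of libraries. Results below are therefore also given without both of these libraries where they bear on a gene, an alternative chosen after seeing the data.

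All 8 genes were detected in every library, with between 23 and 537 counts, and all 8 passed the filter on low counts. Levels of different genes were compared as CPM per kb of annotated exon, averaged over the 6 libraries. Foxj1 had the highest level at 2.64 CPM per kb, followed by the radial spoke gene Rsph1 at 2.33, Tmem212 at 1.74, Dynlrb2 at 1.65 and Ccdc153 at 1.35. The giant axonemal genes were lower, with Dnah5 at 0.916, Hydin at 0.559 and Spag17 at 0.168 CPM per kb. In WT, Foxj1 (2.30 ± 0.265, SD, n = 3) and Rsph1 (2.32 ± 0.355) did not differ beyond their spread. Neither did Dynlrb2 (1.64 ± 0.509) and its neighbours Tmem212 (1.76 ± 0.0645) and Ccdc153 (1.25 ± 0.240), nor Ccdc153 and Dnah5 (0.962 ± 0.0976), whereas Hydin (0.587 ± 0.0473) and Spag17 (0.190 ± 0.0163) lay apart from each other and from the rest. These levels depend on the exon length used, which runs from 0.556 kb for Dynlrb2 to 18 kb for Hydin. For scale, the paralog Dynlrb1, a dynein light chain used in cytoplasmic transport in most cells, stood at 59.2 CPM per kb.

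**Figure D1:**
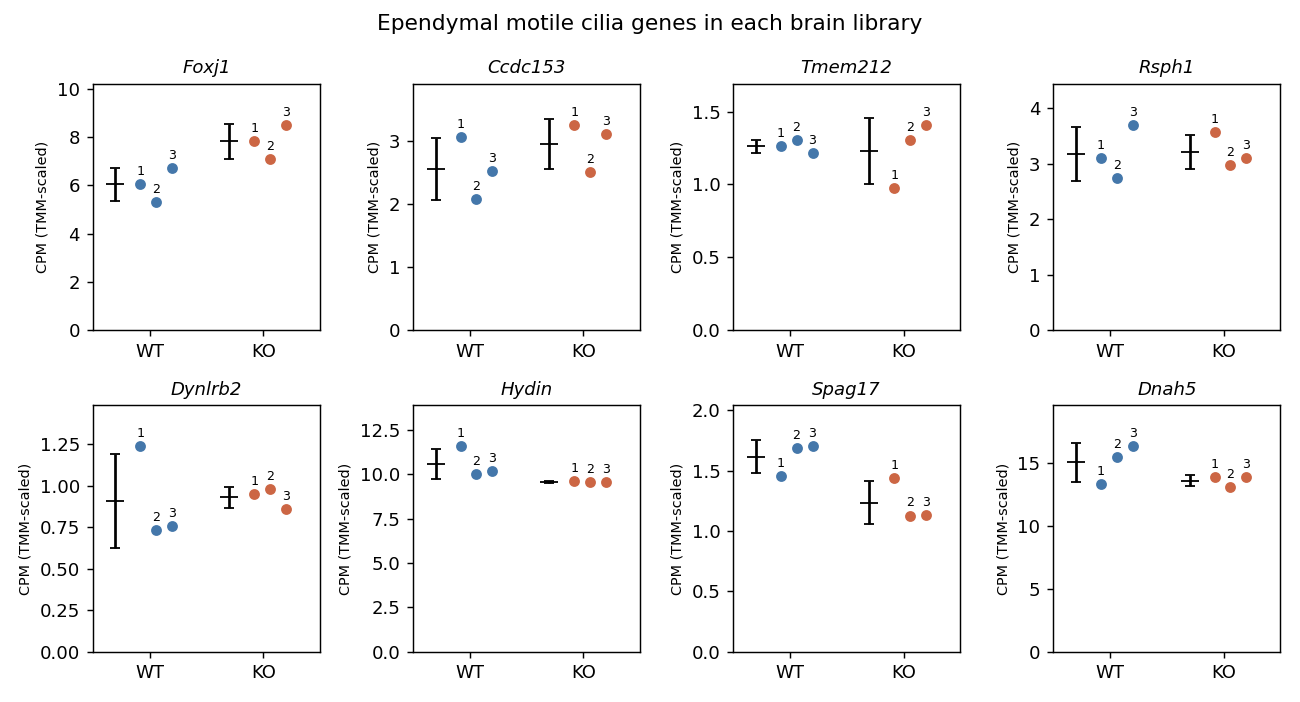
Abundance of each of the 8 motile cilia genes in CPM (vertical axes from 0) in WT (blue) and KO (orange) libraries, numbered 1 to 3, with the mean and SD of each group in black. Foxj1 has every KO library above every WT library (lowest KO 7.10 CPM, highest WT 6.72 CPM), Hydin and Spag17 have every KO library below every WT library, and the other 5 genes overlap.

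Loss of TRMT1L was compared with WT to ask whether motile cilia genes differ in KO brain. By edgeR's quasi-likelihood test, 0 of the 8 genes passed at an adjusted p-value of 0.05, where 0.00942% of all 21237 genes tested passed. Without adjustment 1 of 8, Foxj1, had a p-value under 0.05, against 7.92% of all genes tested, and DESeq2 also gave 1. The fitted log2 fold change was above 0 for 4 of the 8 genes, against 50.1% of all genes tested, and its median was -0.011, against 0.00013 over all genes tested. The groups did not overlap for 3 of 8 genes, 1 higher and 2 lower in KO, against 14.4% of all genes tested. The set is small, and these counts are given as a description. In RNA from whole tissue, fewer ciliated cells and less RNA per cell cannot be told apart.

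Foxj1 (ENSMUSG00000034227.7, chromosome 11 from 116330704 to 116335399 on the minus strand of GRCm38, 3 exons) encodes the forkhead factor that directs the motile cilia programme. Its abundance was 6.07, 5.33 and 6.72 CPM in WT libraries 1 to 3 and 7.86, 7.10 and 8.52 CPM in KO libraries 1 to 3. Every KO library was higher than every WT library, and library 3 was the highest in each group. The group means were 6.04 ± 0.695 CPM for WT and 7.83 ± 0.711 CPM for KO (SD, n = 3), a fold of 1.30 with a 95% interval from 1.08 to 1.55. The log2 fold change of 0.37 (SE 0.118, unadjusted p = 0.00834) did not pass over all genes tested (edgeR adjusted p = 0.576). Without both libraries that carried nasal markers it was 0.39 (edgeR unadjusted p = 0.0176).

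Dnah5 (ENSMUSG00000022262.8, chromosome 15 from 28203752 to 28472052, plus strand, 79 exons) encodes a motor heavy chain of the outer dynein arm, and its loss impairs ciliary beating. It was the most abundant of the set in CPM, at 13.4, 15.5 and 16.3 CPM in the WT libraries and 13.9, 13.1 and 13.9 CPM in the KO libraries. The groups overlapped because WT library 1 lay between KO values. Its log2 fold change was -0.14 (SE 0.0878, edgeR adjusted p = 0.713), and it ranged from -0.22, without WT library 1, to -0.080 when 1 library at a time was left out. Without WT library 1 the KO values of Dnah5 lay below the remaining WT values, with an edgeR unadjusted p of 0.0256. Without both libraries that carried nasal markers the difference was -0.095.

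Hydin (ENSMUSG00000059854.8, chromosome 8 from 110266977 to 110610253, plus strand, 87 exons) encodes a very large protein of the central pair whose loss causes hydrocephalus in mice. Its abundance was 11.6, 10.02 and 10.2 CPM in the WT libraries and 9.64, 9.57 and 9.55 CPM in the KO libraries. The KO libraries were closely grouped and lay below all WT libraries, the nearest of which was only slightly higher. The KO coefficient of variation was 0.525%, where counting alone gives 5.38%. The KO libraries thus lay closer together than counting noise would place them on average, so the lack of overlap carries little weight. The fitted difference, KO over WT, was -0.15 on the log2 scale (SE 0.0902, edgeR adjusted p = 0.719), and without WT library 1, the highest, it was -0.075.

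Spag17 (ENSMUSG00000027867.10, chromosome 3 from 99885406 to 100143322, plus strand, 49 exons) encodes another central pair protein. Its abundance was 1.46, 1.69 and 1.70 CPM in the WT libraries and 1.44, 1.13 and 1.13 CPM in the KO libraries. WT library 1 and KO library 1 almost met, and the other KO libraries were clearly lower than the other WT libraries. The log2 fold change of -0.39 (SE 0.186, unadjusted p = 0.0608) did not pass over all genes tested (edgeR adjusted p = 0.634). It was -0.51 without KO library 1 and -0.29 without both libraries that carried nasal markers. With between 38 and 56 counts per library, counting alone gives a coefficient of variation of 14.4%. On the other strand Spag17 shares 820 bp of exon with Wdr3 and 516 bp with the antisense gene Spag17os, and 693 counts over its exons fell on that strand against 291 on its own. The unstranded counts held 256 for Spag17 and gave a log2 fold change of -0.44 (edgeR unadjusted p = 0.0343).

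Rsph1 (ENSMUSG00000024033.10, chromosome 17 from 31255019 to 31277383, minus strand, 9 exons) encodes a protein of the radial spoke head. Its abundance was 3.11, 2.74 and 3.71 CPM in the WT libraries and 3.57, 2.97 and 3.10 CPM in the KO libraries. The KO values lay within the WT range. On the log2 scale the change of 0.012 had a 95% interval from -0.32 to 0.34 (edgeR adjusted p = 0.989), and its sign changed with the library left out.

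Dynlrb2 (ENSMUSG00000034467.7, chromosome 8 from 116504974 to 116515915, plus strand, 4 exons) encodes a roadblock-type dynein light chain found in ciliated cells. It was the least abundant gene, at 1.24, 0.734 and 0.760 CPM in the WT libraries and 0.950, 0.980 and 0.858 CPM in the KO libraries. WT library 1 was far above the other WT libraries, and the KO libraries lay between. The coefficient of variation was 31.1% in WT and 6.87% in KO (n = 3 each), above and below the 17.8% that counting alone gives. Its log2 fold change of 0.016 had a 95% interval from -0.53 to 0.56 (edgeR adjusted p = 0.991), and without WT library 1 it was 0.31. The paralog Dynlrb1 was at -0.13 on the same scale (SE 0.0622, edgeR adjusted p = 0.633).

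Ccdc153 (ENSMUSG00000070306.3, chromosome 9 from 44240676 to 44247306, plus strand, 7 exons) encodes a coiled-coil protein and is widely used as an ependymal marker in mouse brain. Its abundance was 3.05, 2.07 and 2.52 CPM in the WT libraries and 3.25, 2.495 and 3.10 CPM in the KO libraries. The groups overlapped, with library 2 the lowest in each. KO over WT was 0.21 on the log2 scale (SE 0.173, edgeR adjusted p = 0.797), with a 95% interval from -0.17 to 0.58. Leaving out WT library 1 gave 0.36 and leaving out WT library 2 gave 0.081.

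Tmem212 (ENSMUSG00000043164.3, chromosome 3 from 27866066 to 27896368, minus strand, 4 exons) encodes a membrane protein and is another common ependymal marker. Its abundance was 1.26, 1.31 and 1.22 CPM in the WT libraries and 0.978, 1.31 and 1.41 CPM in the KO libraries. The KO libraries spanned the WT range on both sides. The log2 fold change was -0.034 (SE 0.199, edgeR adjusted p = 0.982), and without KO library 1 it was 0.11.

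**Figure D2:**
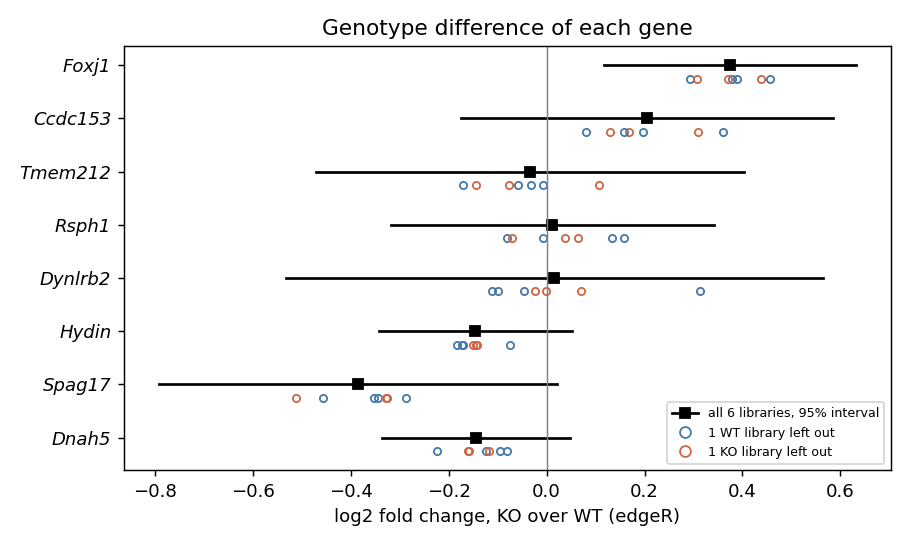
Log2 fold change of KO over WT for each gene from edgeR (black squares) with its 95% interval (bars). Circles give the value with 1 WT (blue) or 1 KO (orange) library left out. A further blue circle for each gene gives the value without both libraries that carried nasal markers. The interval of Foxj1 lies above 0, from 0.12 to 0.63, although its adjusted p-value over all genes was 0.576, and the intervals of the other 7 genes include 0.

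In measured abundance the 8 genes did not follow a common course across libraries. Summed over the genes, abundance was 41.1, 39.4 and 43.1 CPM in the WT libraries and 41.6, 38.6 and 41.5 CPM in the KO libraries, so the total overlapped between the groups while single genes within it lay on opposite sides. Each gene was then expressed as the deviation of its log2 CPM from its own mean over the 6 libraries. In WT library 2, Foxj1, Ccdc153, Rsph1 and Dynlrb2 were at -0.36, -0.38, -0.21 and -0.28, while Spag17 and Dnah5 were at 0.26 and 0.12. In KO library 3, Foxj1 was at 0.31 and Spag17 at -0.30. Counting alone gives a coefficient of variation of 6.48% for Foxj1, 14.4% for Spag17 and 17.8% for Dynlrb2. Part of these deviations may therefore be counting noise.

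**Figure D3:**
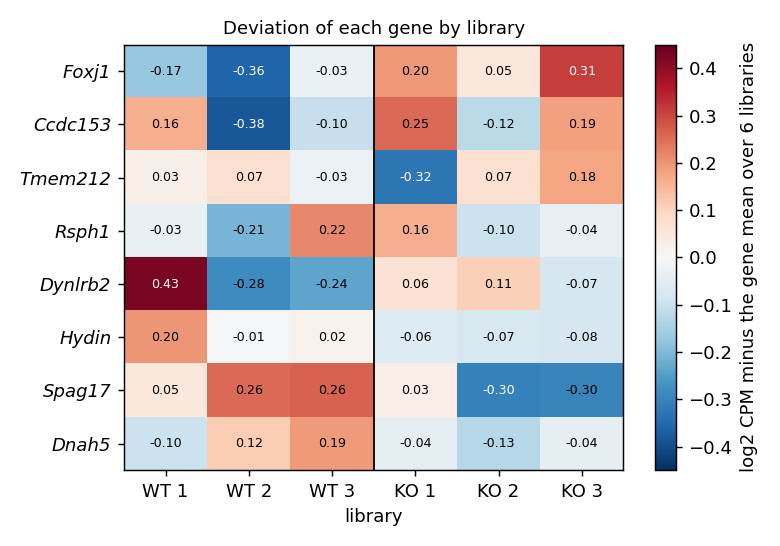
Deviation of each gene's log2 CPM from its own mean over the 6 libraries (color, red above and blue below the mean, values printed in the cells), with WT libraries left of the line and KO libraries right of it. Foxj1 is negative in all WT libraries and positive in all KO libraries, Hydin, Spag17 and Dnah5 are mostly the other way round, and no library is high or low for all 8 genes.

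The ratio of Foxj1 to other members was taken within each library, which was chosen once these values were known. Foxj1 over Dnah5 was 0.455, 0.344 and 0.412 in WT and 0.566, 0.543 and 0.615 in KO. Foxj1 over Hydin was 0.525, 0.532 and 0.660 in WT and 0.815, 0.742 and 0.893 in KO. All KO ratios lay above all WT ratios for Rsph1, Hydin, Spag17 and Dnah5, 4 of the 7 other members, and overlapped for Ccdc153, Tmem212 and Dynlrb2. Foxj1 alone already separated the groups, and 50.9% of all other tested genes gave a ratio that did the same, so this count describes Foxj1 and not these members. The ratios share the Foxj1 values and were not tested.

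Foxj1 was not alone on its side, since the summed markers of choroid plexus epithelium (ciliated too), of meningeal fibroblasts and of tanycytes were also higher in all KO libraries than in all WT libraries. For the first this held only with Ttr and for the second only with Ptgds included, and the groups overlapped for each of the 5 tanycyte genes. The 14 choroid plexus markers summed to 421, 366 and 413 CPM in the WT libraries and 508, 498 and 426 CPM in the KO libraries, led by the thyroxine carrier Ttr at 293 ± 27.3 CPM in WT against 359 ± 34.0 CPM in KO (SD, n = 3), followed by Kl, the co-receptor klotho, at 26.0 ± 1.75 and 29.5 ± 2.73 CPM. The fitted change was above 0 for all 14 markers, against 50.1% of all genes tested, and the KO libraries lay above all WT libraries for 6, against 7.46%. Of the 14 markers, 0 passed over all genes tested (smallest edgeR adjusted p = 0.576, for Ttr). None of the 14 was at 0 counts. Without Ttr the other 13 markers summed to 104, 103 and 113 CPM in WT and 124, 126 and 106 CPM in KO, so the groups then overlapped. Within KO the order differed, as library 3 had the lowest choroid plexus sum and the highest Foxj1. The 5 blood markers all had a fitted change above 0, with a median log2 fold change of 0.52, but their sums overlapped, from 109 to 149 CPM in WT and from 98.3 to 247 CPM in KO. The 7 meningeal fibroblast markers summed to between 387 and 449 CPM in WT and between 476 and 531 CPM in KO, but 4 of the 7 had a fitted change below 0. That sum was led by Ptgds, a prostaglandin D synthase named after its values were seen, at 0.33 for KO over WT in log2 units (SE 0.0652, edgeR adjusted p = 0.550). Without Ptgds the other 6 summed to 82.2, 77.9 and 89.7 CPM in WT and 76.3, 70.9 and 88.5 CPM in KO, so the groups overlapped. The extracellular matrix proteoglycan genes Dcn and Lum, also named after their values were seen, lay lower in every KO library than in any WT library. Their KO over WT values were -0.26 for Dcn (SE 0.0757, edgeR adjusted p = 0.576) and -0.42 for Lum (SE 0.152, edgeR adjusted p = 0.579). Of the blood and meningeal markers, 0 passed over all genes tested. The part of RNA from these cell types in the Foxj1 value was not tested.

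Markers of ependymal cells outside the cilium (S100b, Pltp, Vim, Cd24a, Rarres2, Hdc and Mia) summed to between 221 and 256 CPM in WT and between 221 and 235 CPM in KO. Their groups overlapped for each of the 6 tested, and several of these genes are also made by astrocytes or other cells. S100b had 118 ± 9.77 CPM in WT against 109 ± 7.32 CPM in KO (SD, n = 3), and Pltp 53.4 ± 6.29 and 52.4 ± 5.54 CPM. The 5 tanycyte and circumventricular markers, led by Crym and Col23a1, summed to between 46.0 and 48.2 CPM in WT and between 49.7 and 53.9 CPM in KO, with 0 of the 4 tested under an unadjusted p of 0.05. The defining tanycyte factor Rax had at most 3 counts in a library. The 20 nasal markers summed to between 34.6 and 86.8 CPM in WT and between 42.1 and 95.2 CPM in KO. Gng13 and Omp, which neurons in brain tissue also express, had the highest means of the list, and in KO library 3 Bpifb9b alone reached 29.7 CPM. Scgb1a1, the secretory protein of airway club cells, had 0 counts in every library. The part of nasal tissue in the member values was not tested beyond the fit without WT library 3 and KO library 3. In that fit the log2 fold changes were 0.39 for Foxj1, 0.16 for Ccdc153, -0.17 for Tmem212, 0.16 for Rsph1, -0.046 for Dynlrb2, -0.17 for Hydin, -0.29 for Spag17 and -0.095 for Dnah5. Those of Tmem212 and Rsph1 were -0.034 and 0.012 with all 6 libraries, so they were farther from 0 without these libraries.

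**Figure D4:**
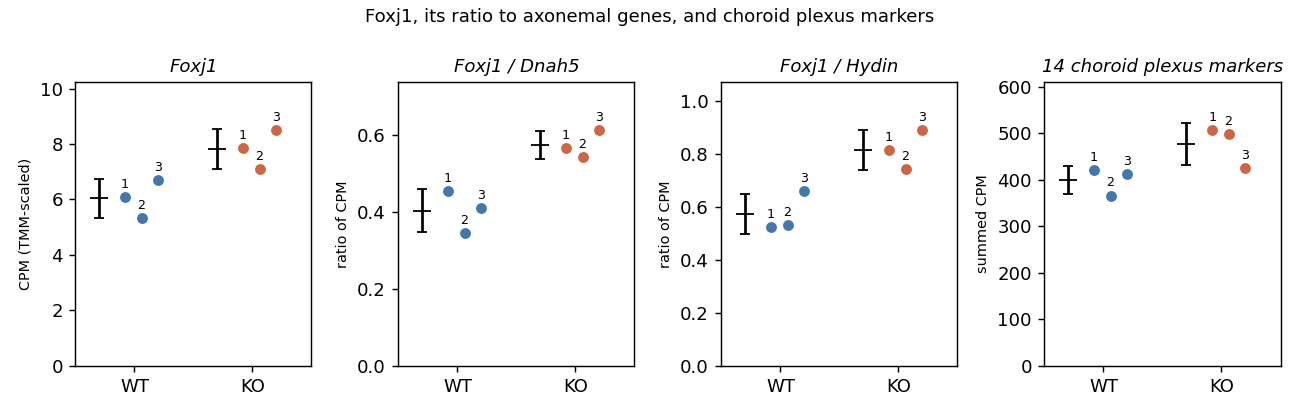
Foxj1 in CPM, its ratio to Dnah5 and to Hydin in CPM, and the summed CPM of 14 choroid plexus markers, each from 0, in WT (blue) and KO (orange) libraries numbered 1 to 3 with mean and SD in black. In all 4 panels the KO libraries lie above the WT libraries, which for the choroid plexus sum holds only with Ttr included, and KO library 3 is the highest KO library for Foxj1 and both ratios but the lowest for the choroid plexus markers.

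The wider motile cilia machinery was read from 7 lists by role, 109 genes without the 8 members, of which 107 were found in the annotation and 103 passed the filter. In edgeR's test 0 of the 103 passed over all genes tested. At an unadjusted p under 0.05, 3 were higher in KO (2.91%, against 4.54% of all genes tested) and 3 were lower (2.91%, against 3.38%). The groups did not overlap for 4 genes higher in KO (3.88%, against 7.46% of all genes) and 4 lower (3.88%, against 6.97%). The median log2 fold change of the 103 genes was -0.012, and 49 were above 0.

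Among regulators of multiciliated cell formation, 11 of 13 were tested and 1 was under an unadjusted p of 0.05. This was Myb, a transcription factor active in early multiciliated cells, at 0.928 ± 0.168 CPM in WT against 1.28 ± 0.0613 CPM in KO (SD, n = 3, log2 fold change 0.46, edgeR adjusted p = 0.624). Rfx3, a partner of FOXJ1 at ciliary promoters, had the highest level per length of that list and a log2 fold change of -0.045 (SE 0.0714). Of the outer dynein arm and docking genes 10 of 11 were tested and 0 had an unadjusted p under 0.05. Dnal1, a light chain of the outer arm, led them in level at 99.7 ± 3.67 CPM in WT against 97.2 ± 3.22 CPM in KO, and Ccdc103, a dynein attachment factor, had the smallest p (log2 fold change 0.35, edgeR adjusted p = 0.719).

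Among the inner dynein arm and nexin-dynein regulatory complex genes, all 21 were tested, and 1 higher and 2 lower in KO had an unadjusted p under 0.05. Drc7, a part of the nexin-dynein regulatory complex, was at 4.50 ± 0.389 CPM in WT against 5.59 ± 0.214 CPM in KO (SD, n = 3), a log2 fold change of 0.31 (edgeR adjusted p = 0.581). Gas8, a part of the same complex, was at 0.047 on that scale (SE 0.0596). The 2 on the lower side, named after their values were seen, were Dnah7b, an inner arm motor (-0.19), and Iqca (-0.53). Dynein arm assembly factors had 10 of 11 tested, with Pih1d3 at 0 counts in every library, and 0 under an unadjusted p of 0.05. On the log2 scale their leading gene Lrrc6 was at -0.069 (SE 0.138) and Pih1d2 at -0.22 (SE 0.157).

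All 10 other radial spoke genes were tested, with 8 of 10 fitted below 0, a median of -0.072 and 0 under an unadjusted p of 0.05. Rsph9, a spoke head protein like Rsph1, was at 7.20 ± 0.814 CPM in WT against 6.90 ± 0.470 CPM in KO, and Rsph3a had the smallest p of the list (log2 fold change 0.18, edgeR adjusted p = 0.706). Of the central pair genes 18 of 19 were tested, and Cfap54 alone was under an unadjusted p of 0.05, at 26.0 ± 0.621 CPM in WT against 22.9 ± 2.20 CPM in KO (SD, n = 3, log2 fold change -0.18, edgeR adjusted p = 0.613). Cfap74, of the same apparatus, had 0.063 (SE 0.0826). Of 24 genes of axonemal microtubules and their inner proteins 23 were tested, led in level by Tppp3, a tubulin-binding protein, with a log2 fold change of 0.064 (SE 0.0671). Tekt4, a tektin filament protein, had the smallest p, with 0.440, 0.447 and 0.547 CPM in the WT libraries and 0.662, 1.81 and 0.581 CPM in the KO libraries, so its log2 fold change of 1.08 (edgeR adjusted p = 0.600) rested mainly on KO library 2.

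Intraflagellar transport serves motile and primary cilia alike, and brain neurons and glia carry primary cilia. Of its 32 genes 31 were tested, 0 had an unadjusted p under 0.05, and the log2 fold changes ran from -0.11 to 0.11 with a median of -0.0073. Ift172 had the smallest p (log2 fold change 0.11, SE 0.0514, edgeR adjusted p = 0.634), and Kifap3, a kinesin subunit, the highest level per length (-0.060, SE 0.0471). Of the 5 dynein light chain paralogs 0 had an unadjusted p under 0.05, and Dynll2, the highest of them, was at -0.016 (SE 0.0446).

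**Figure D5:**
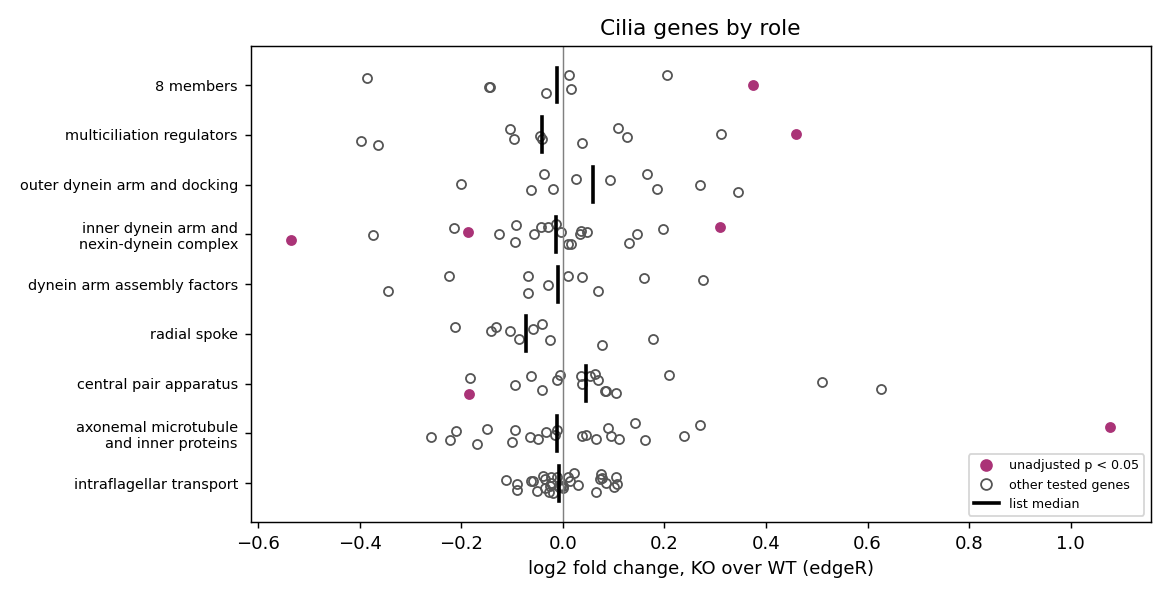
Log2 fold change of KO over WT (horizontal axis) for every tested gene of the 8 members, the 7 motile cilia lists and intraflagellar transport, with filled points for an unadjusted edgeR p under 0.05 and a black bar at each list's median. The medians lie between -0.072 (radial spoke) and 0.059 (outer dynein arm), and filled points fall on both sides of 0.

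The members on the lower side are also the longest. Hydin, Spag17 and Dnah5 span 343, 258 and 268 kb of genome, whereas the other 5 genes span between 4.70 and 30.3 kb. Over all protein-coding genes tested, the 711 that span over 250 kb had a median log2 fold change of -0.031 with 67.5% below 0. The 3594 genes of up to 10 kb had a median of 0.054 with 32.3% below 0. The part of gene length in the values of Hydin, Spag17, Dnah5 and Foxj1 was not tested.

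Genes with the most similar course were sought by the root mean square difference, over the 6 libraries, between a gene's log2 CPM deviations and the mean deviations of the 8 members. Among 17294 genes of at least 1 CPM the closest were Cox5a, Cyp7b1, Mmp15, Dach1, Htatsf1, Kat5, Zfp97, Lgals8, Orc6 and Yes1, with differences from 0.0158 to 0.0231. None of these 10 is on a cilia or marker list used here. A gene with no variation at all would have a difference of 0.0598, and the median over the compared genes was 0.115. The members themselves had 0.0859 (Hydin) to 0.237 (Spag17). Averaging 8 genes reduces counting noise in the common mean but not in a single gene. A member can therefore lie farther away than a flat gene whatever its course, and these differences do not show whether the members move together.

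Promoters were read for what the members share in sequence, since RFX factors and FOXJ1 act there. RefSeq windows on GRCm38.p6, from 250 bases before to 50 bases after the start of transcription, were found for 6 of the 8 genes, Ccdc153, Tmem212, Dynlrb2, Hydin, Spag17 and Dnah5. The half-site GTTGCC of the RFX-bound X-box, searched on both strands, was present in 3 of these 6 windows and in 12.5% of all 32851 windows. The forkhead sequence TGTTTAC was present in 0 of 6 and in 3.65% of all windows. The 3 matches are shown 5′ to 3′ on the strand of the gene, with the half-site in capitals, because they are the promoters of the set that hold this element. In Hydin the capitals are its reverse complement.
Ccdc153 (chr9:44240513-44240542): ctgagttttccaGTTGCCtggacaacgtgc
Dynlrb2 (chr8:116504952-116504981): acttcctgcctgGTTGCCtagcaacggggg
Hydin (chr8:110266952-110266981): tgcggttgctgtGGCAACagatggtaacaa
All 3 genes lie on the plus strand, and the matches begin 152, 51 and 13 bases before the RefSeq start sites, which are at 44240677 for Ccdc153, 116505015 for Dynlrb2 and 110266977 for Hydin. For Dynlrb2 the RefSeq start lies inside the GENCODE gene, which begins at 116504974. The log2 fold changes of these genes were 0.21, 0.016 and -0.15, so genes with the half-site lay on both sides of 0. A match describes the letters in the window and is not evidence of binding.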

How the data were processed

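The authors deposited 1 table of raw read counts per library, in the layout of STAR gene counts. Per the submitters' processing notes, cutadapt 1.9.1 and STAR 2.7.0f were used. The genome build and annotation are not given in the sources used here, and the 55450 gene identifiers are those of GENCODE M21, from which names, positions and exon lengths were taken. Counts on the strand opposite to the first read (between 94.6% and 94.8% of stranded counts) were used. Rows that name no gene (unmapped, multimapping, no gene, several genes) made up 57.7% to 60.2% of reads and stayed out of library sizes.

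Counts were filtered (filterByExpr), scaled with TMM and tested by genotype with edgeR 4.0.16's quasi-likelihood test in R 4.3.3 over all 6 libraries. Benjamini-Hochberg adjustment was over all genes tested, and the script was checked on simulated data. Of 200 genes given a log2 fold change of 0.25, 0.5 or 1 in that check, 3.5%, 48.5% and 77% passed. Most genes given 0.25 were therefore missed. Of the genes that passed, 22.22%, 4.902% and 8.876% were false. SE is the log2 fold change divided by the square root of F, and intervals use the test's degrees of freedom. Likeness used log2 CPM with a prior count of 2. From each cilia list the gene with the smallest p and the gene with the highest CPM per kb were named, and from the choroid plexus, ependymal, tanycyte and nasal lists the 2 most abundant. The members and lists were chosen with earlier results of these data known. Cfap47 and Pierce1 were not matched. Alternatives were other scalings, filters, count columns, DESeq2 1.42.0, limma 3.58.1 (voom), the replicate block and left-out libraries.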

Additional observations from a re-analysis of the deposited data

How the results depend on the processing

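In each alternative that gave members an adjusted p, 0 passed over all genes tested. DESeq2 with its independent filtering gave none of the 8 members an adjusted p, nor Trmt1l. Foxj1 and Ccdc153 stayed above 0, and Hydin, Spag17 and Dnah5 below 0, in every alternative that tested them (Spag17, Tmem212 and Dynlrb2 were below a mean count of 50), with Foxj1 between 0.29 and 0.46 (adjusted p from 0.168 to 0.861). Trmt1l stayed between -3.62 and -3.46. With 1 library left out, Tmem212 ranged from -0.14 to 0.11, Rsph1 from -0.081 to 0.13 and Dynlrb2 from -0.11 to 0.31. Without both libraries 3 Tmem212 was -0.17, Rsph1 0.16 and Dynlrb2 -0.046. These 3 genes therefore have no stable sign.

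Members with an unadjusted p under 0.05 numbered 2 with the unstranded column (Foxj1 and Spag17, the latter at -0.44), and from 1 to 2 with 1 library left out: 2 without WT library 1 (with Dnah5) and without KO library 1 (with Spag17). Members whose groups did not overlap numbered 2 with a mean count of at least 50, which leaves out Spag17 (15.7% of all genes then tested), and from 3 to 5 with 1 library left out, 5 without WT library 1. With 1 library left out, from 23.1% to 26.2% of all genes tested did not overlap (24.3% without WT library 1), against 14.4% with all 6. Of the motile cilia list genes tested in each alternative, 3 were under that p with a mean count of at least 50, which leaves out Myb, Iqca and Tekt4. The DESeq2 Wald test gave 3, and DESeq2 without independent filtering, an alternative chosen after seeing the data, also gave 3. With 1 library left out from 3 to 6 were under that p, 3 without KO library 2. Over all genes, 298 passed with no filter, 26 with DESeq2, 15 with DESeq2 without independent filtering and from 2 to 5 with 1 library left out, 5 without KO library 3. The replicate block gave 4 genes. Deviations of same-numbered libraries correlated at 0.040, -0.031 and -0.058 over all genes tested, which gave no sign of pairing across genes as a whole. WT library 3 and KO library 3 nevertheless shared the nasal markers, and a correlation over all genes can miss what few genes share. Under the block Foxj1 was at 0.38 (edgeR adjusted p = 0.698). The cause of these changes was not tested. Between 23 and 56 counts per library limit Tmem212, Dynlrb2 and Spag17.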
